A study of Mus musculus with 16 samples.

Results

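Gas6, Pros1, Axl, Mertk and Tyro3 are the mouse genes of the GAS6 and TAM receptor system: 2 secreted ligands and the 3 receptors that give TAM its letters. They were measured in cultured embryonic fibroblasts of the mouse, cells that lay down connective tissue. The genes were taken by name, each as the probe set whose only gene symbol is that gene, and each had exactly 1 such probe set. They are 5 of the 19938 genes tested. The set was chosen because Gas6 differed strongly between the 2 lines of the study, so differences between the lines are given below as a description with no test for these 5 genes.

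GAS6 and protein S (the product of Pros1) are related secreted proteins. An amino-terminal Gla domain, rich in glutamate residues carboxylated in a vitamin K-dependent reaction, lets them bind phosphatidylserine, a lipid that dying cells expose on their surface. Their carboxy-terminal part binds TYRO3, AXL and MERTK, receptor tyrosine kinases, so the ligands bridge an exposing cell to the cell that carries the receptor. The system is known for the clearance of apoptotic cells and for damping of innate immune signals. GAS6 took its name from growth arrest of fibroblasts, in which it was found as a gene expressed in serum-starved cells.

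Total RNA of 16 plates was hybridised to 16 arrays, 4 in each of 4 groups. Control cells were wild type embryonic fibroblasts with a scramble short hairpin RNA, and knockdown cells stably expressed an ATF5 short hairpin RNA (ATF5 belongs to the ATF/CREB family of transcription factors). Plates of each line had DMSO as vehicle or 1 µM MG132, a proteasome inhibitor, for 8 h. Each genotype is 1 line, so the hairpin and other differences between the lines cannot be told apart. The labels do not say that plates came from separate cultures, and p-values therefore reflect no more than the spread among these plates, which may be technical.

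Values are deposited log2 intensities of probe sets. They rank arrays for 1 gene and do not compare levels between genes. Array medians lay between 7.71 and 7.82, and arrays of the same group correlated at 0.993 to 0.998 over all probe sets. Atf5, the target of the hairpin, averaged 8.57 ± 0.10 (SD, n = 4) in control and 8.35 ± 0.06 in knockdown cells with vehicle, a difference of -0.22 ± 0.05 (SE, adjusted p = 0.00321, limma). With MG132 the line difference of Atf5 was -0.31 ± 0.05 (adjusted p = 0.000148). The position of the probes relative to the hairpin's target is unknown here. Within groups, 37.8% of the variance followed 1 gradient shared by many genes, and the arrays lowest on it were control MG132 replicate 4 and knockdown vehicle replicate 1. Results were also computed without 4 arrays low on it: these 2, control vehicle replicate 1 and control vehicle replicate 4. Knockdown MG132 replicate 2 was almost level with the last of them (scores -4.269 and -4.266) and marginally lower, so the same was done with it in place of control vehicle replicate 4. These are called the first and the second set below. Low means 1 end of the gradient, whose sign was set to rise with a list of fibroblast marker genes. Arrays at the other end, such as control MG132 replicate 2 (9.34) and knockdown vehicle replicate 4 (8.19), are in neither set. Without the first set only 2 arrays of control cells with vehicle remain. Control responses and differences of the responses computed without it rest on those 2 for that group.

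Gas6 carried the widest line difference of the 5 genes. In control cells with vehicle its 4 arrays read 7.53, 7.53, 7.39 and 7.64 (mean 7.52 ± 0.10 SD). In knockdown cells with vehicle they read 11.73, 11.59, 11.65 and 11.73 (mean 11.68 ± 0.07). No array of one line came within 3.95 of the other line, and the means differed by 4.15 ± 0.06 (SE), or 17.8-fold, a size exceeded by 10 of the 19938 genes. Gas6 in control cells with vehicle read below the lowest array median, 7.71, no detection calls were used, and changes of dim probe sets are compressed on arrays. Both the fold and the control response to MG132 are therefore those of a probe set that may be near background, and the fold may understate the difference. It chose the gene and is given without a test. In bulk RNA, fewer cells of a type and less RNA per cell cannot be told apart.

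MG132 moved Gas6 down in knockdown cells. There the treated arrays read 10.93, 11.05, 11.14 and 11.01 (mean 11.03 ± 0.09), all below the vehicle arrays. The response was -0.64 ± 0.06, so the signal fell by 35.9% (adjusted p = 1.74e-07, limma; exact two-sided permutation p = 0.0286, which is the minimum for groups of 4). In control cells the treated arrays read 7.55, 7.76, 7.74 and 7.62 (mean 7.67 ± 0.10) and overlapped the vehicle arrays. That response, 0.15 ± 0.06 (95% interval 0.017 to 0.273), missed the threshold (adjusted p = 0.0744; exact permutation p = 0.143). It passed without control vehicle replicate 4 or without control MG132 replicate 1 (adjusted p 0.0311 and 0.0314). Without the first set of low-gradient arrays it passed (0.22, adjusted p = 0.0380), and without the second it did not (0.16, adjusted p = 0.125).

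The responses of Gas6 in the lines differed by -0.79 ± 0.09 (95% interval -0.968 to -0.607, adjusted p = 1.51e-05, limma), 1 of the 81 largest such differences among all genes. This contrast is the line difference with MG132 minus that with vehicle. It thus shares arrays and values with the comparisons by which Gas6 was chosen, and its p-value and rank are not independent of that choice. In control cells Gas6 averaged 7.52 with vehicle and 7.67 with MG132, below the lowest array median, 7.71. A fall there could be compressed, and the part of this in the difference was not tested. Without the first and the second set of low-gradient arrays it was -0.85 and -0.79 (adjusted p = 0.000218 and 0.000567), and the response in knockdown cells was -0.62 and -0.63. With MG132 the line difference was 3.37 ± 0.06 or 10.3-fold, and no array of the lines overlapped. The lowest Gas6 value of a treated knockdown array, 10.93, was above every control array.

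Pros1 encodes protein S, which also acts in blood as a cofactor of activated protein C. Control arrays read 8.93, 9.07, 8.88 and 8.84 with vehicle (mean 8.93 ± 0.10) and 9.01, 9.36, 9.16 and 9.04 with MG132 (mean 9.14 ± 0.16). Knockdown arrays read 9.63, 9.46, 9.65 and 9.73 with vehicle (mean 9.62 ± 0.11) and 9.45, 9.43, 9.63 and 9.48 with MG132 (mean 9.50 ± 0.09). Every knockdown array lay above every control array of the same treatment, by 0.69 ± 0.08 on average with vehicle (1.61-fold) and 0.36 ± 0.08 with MG132 (1.28-fold).

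MG132 shifted Pros1 in control cells by 0.21 ± 0.08 (adjusted p = 0.0392, limma), though treated and vehicle arrays overlapped and the exact permutation p was 0.0857. The call was lost without control vehicle replicate 1, 3 or 4 or control MG132 replicate 2 or 3 (adjusted p 0.0692 to 0.139), and without the first or the second set of low-gradient arrays (adjusted p 0.163 and 0.0619). In knockdown cells the response was -0.12 ± 0.08 (95% interval -0.282 to 0.042) and missed the threshold (adjusted p = 0.227). The difference of the responses, -0.33 ± 0.11, just passed (adjusted p = 0.0498). It missed without any 1 of 11 arrays (adjusted p 0.0660 to 0.106): replicates 1, 3 and 4 of control vehicle and of knockdown vehicle, replicates 2 and 3 of control MG132, and replicates 1, 2 and 4 of knockdown MG132. Without the first and the second set of low-gradient arrays its adjusted p was 0.138 and 0.104.

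**Figure D1:**
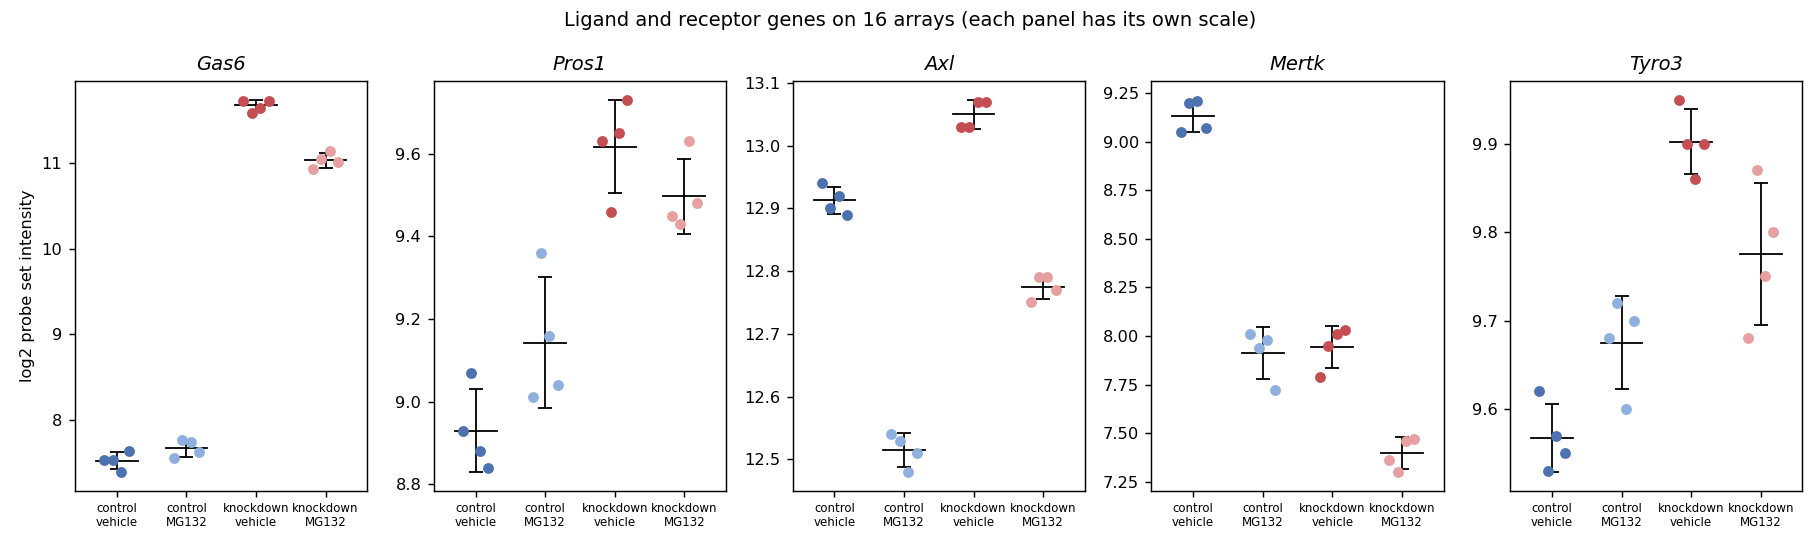
Log2 intensity of each of the 16 arrays for Gas6, Pros1, Axl, Mertk and Tyro3, with 1 panel per gene, the 4 groups along the horizontal axis, and lines at the group mean ± SD (n = 4). Gas6 lies between 7.39 and 7.76 in control cells and between 10.93 and 11.73 in knockdown cells, while Mertk is highest in control cells with vehicle.

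Axl, a receptor for which GAS6 is the known high-affinity ligand, fell with MG132 in both lines. Control arrays read 12.94, 12.90, 12.92 and 12.89 with vehicle and 12.54, 12.53, 12.48 and 12.51 with MG132. Knockdown arrays read 13.03, 13.03, 13.07 and 13.07 with vehicle and 12.75, 12.79, 12.79 and 12.77 with MG132. Treated and vehicle arrays were apart in both lines, with SDs of 0.02 to 0.03 in each group.

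The Axl response was -0.40 ± 0.03 in control cells (it fell by 24.1%, adjusted p = 7.07e-09, limma) and -0.28 ± 0.03 in knockdown cells (it fell by 17.4%, adjusted p = 5.01e-07). Exact permutation gave p = 0.0286 in each line. The difference of the responses, 0.12 ± 0.04 (95% interval 0.038 to 0.207), missed the threshold (adjusted p = 0.0506). Knockdown arrays were slightly higher than control arrays, by 0.14 ± 0.03 with vehicle and 0.26 ± 0.03 with MG132, and did not overlap them.

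Mertk, the receptor best known from macrophages and from the retinal pigment epithelium, moved opposite to Gas6 between the lines. With vehicle its arrays read 9.05, 9.20, 9.21 and 9.07 in control cells (mean 9.13 ± 0.08) and 7.79, 7.95, 8.01 and 8.03 in knockdown cells (mean 7.95 ± 0.11). With MG132 they read 8.01, 7.94, 7.98 and 7.72 in control cells (mean 7.91 ± 0.13) and 7.36, 7.30, 7.46 and 7.47 in knockdown cells (mean 7.40 ± 0.08). Treated control cells overlapped untreated knockdown cells, control cells with vehicle were highest, and treated knockdown cells were lowest.

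In control cells the Mertk response to MG132 was -1.22 ± 0.07, so the signal fell by 57.1% (adjusted p = 3.83e-10, limma), and 59 of the 19938 genes had a larger one. In knockdown cells it was -0.55 ± 0.07, and the signal fell by 31.6% (adjusted p = 4.12e-06). Exact permutation gave p = 0.0286 in each line, with no overlap of the arrays. The responses differed by 0.67 ± 0.10 (95% interval 0.469 to 0.876, adjusted p = 0.000198), the loss being larger in control cells. Mertk in treated knockdown cells averaged 7.40, below the lowest array median, 7.71, and changes of dim probe sets can be compressed. The part of this in the smaller loss of knockdown cells was not tested. Control MG132 replicate 4 and knockdown vehicle replicate 1 were the lowest Mertk arrays of their groups. Without the first set of low-gradient arrays the responses were -1.23 and -0.60 and their difference 0.63 (adjusted p = 0.000150), and without the second they were -1.18, -0.57 and 0.62 (adjusted p = 0.000130). The line difference, a description, was -1.19 ± 0.07 with vehicle (2.28-fold lower) and -0.52 ± 0.07 with MG132 (1.43-fold lower).

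Tyro3, a receptor known mostly from the nervous system, stayed between 9.53 and 9.95 on all 16 arrays. Its arrays read 9.62, 9.53, 9.57 and 9.55 in control cells with vehicle, and 9.68, 9.72, 9.60 and 9.70 with MG132. Knockdown arrays read 9.95, 9.90, 9.86 and 9.90 with vehicle, and 9.68, 9.87, 9.75 and 9.80 with MG132. The lines were apart with vehicle (0.34 ± 0.04) and overlapped with MG132 (0.10 ± 0.04).

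The Tyro3 response in control cells was 0.11 ± 0.04 (95% interval 0.019 to 0.196) and missed the threshold (adjusted p = 0.0543, limma). It passed without control vehicle replicate 1, control MG132 replicate 3, or knockdown MG132 replicate 1 or 2 (adjusted p 0.0244 to 0.0400). In knockdown cells it was -0.13 ± 0.04 (adjusted p = 0.0209), with overlapping arrays and an exact permutation p of 0.0571. That call was lost without knockdown vehicle replicate 1 or knockdown MG132 replicate 1 or 3 (adjusted p 0.0510 to 0.0817), and the value fell to -0.048 when the arrays were quantile normalized again. The responses differed by -0.24 ± 0.06 (adjusted p = 0.0122). The difference was lost after that normalization (-0.17, adjusted p = 0.106). Without the first set of low-gradient arrays the difference (-0.23, adjusted p = 0.0504) and the response in knockdown cells (-0.11, adjusted p = 0.0572) missed the threshold. Without the second set both passed (-0.26, adjusted p = 0.0116, and -0.14, adjusted p = 0.0148).

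**Figure D2:**
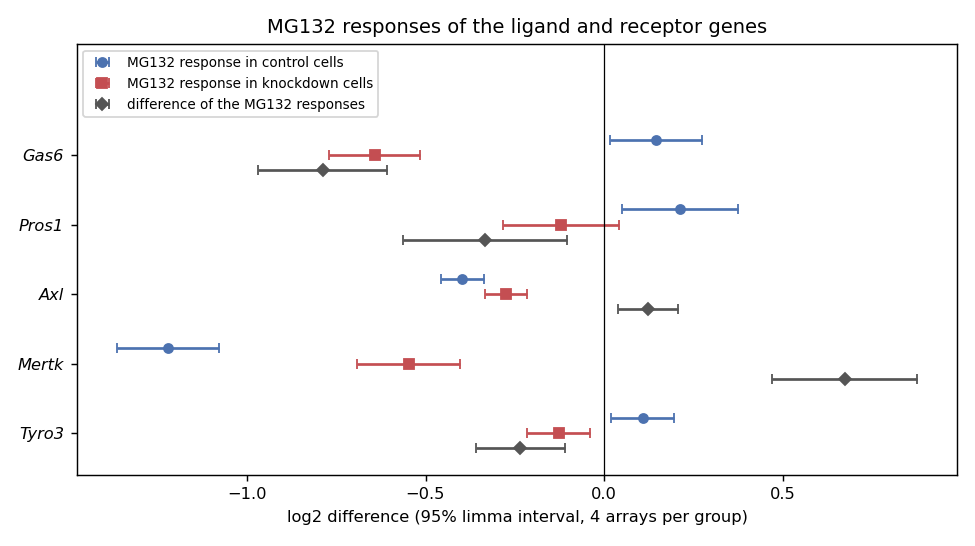
Log2 response to MG132 (MG132 minus vehicle) of the 5 genes in control cells (circles) and knockdown cells (squares), and the difference of the responses (diamonds), with 95% intervals of the limma fit to 16 arrays. Mertk and Axl lie below 0 in both lines, and Gas6 lies at 0.15 in control and -0.64 in knockdown cells.

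Ordered by mean level, the groups of Axl were control MG132 (12.52), knockdown MG132 (12.78), control vehicle (12.91) and knockdown vehicle (13.05), and no neighbouring groups overlapped. Gas6, Pros1 and Tyro3 shared another order: control vehicle, control MG132, knockdown MG132 and knockdown vehicle. Of these steps, the arrays of Gas6 overlapped at the first, those of Pros1 at the first and the last, and those of Tyro3 at each. Mertk ran from knockdown MG132 through control MG132 and knockdown vehicle, which overlapped, to control vehicle.

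Counted together, 3 of the 5 genes passed in control cells, 1 rising and 2 falling, where 35.8% of all genes passed (16.8% higher and 19.0% lower). In knockdown cells 4 of 5 passed, all falling, where 40.7% of all genes passed and 24.3% fell. The difference of the responses passed for 4 of 5, 1 above 0 and 3 below, against 14.6% of all genes (4.45% higher and 10.1% lower). That count is not independent of the choice of the set, since the contrast shares values with the line comparisons. The median response of the 5 was 0.11 in control and -0.28 in knockdown cells, where all genes had medians of 0.03 and 0.03. Between the lines 4 of the 5 read higher in knockdown cells and Mertk lower. The line comparison called 39.4% of the genes tested with vehicle (21.5% higher and 17.9% lower in knockdown cells). Under MG132 it called 38.1% (17.7% higher and 20.3% lower). Nothing is read from these shares beside genes chosen on that contrast.

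The split of all calls by direction moved with the scaling. Of the genes called in control cells 46.8% were higher, and 31.7% were after centring each array on its median. In knockdown cells these shares were 40.3% and 24.0%. The responses of the 5 genes kept their signs under both scalings.

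Gas6 and Mertk, the members whose line difference exceeded 1 on the log2 scale, are shown by the sequence around their annotated start sites, 250 bases before to 50 after. The sequences are from RefSeq, build GRCm38.p6, 5′ to 3′ on the gene's strand: Gas6 at chr8:13494486-13494785 (minus strand) and Mertk at chr2:128698665-128698964 (plus strand). Capitals mark GC boxes, the letters GGGCGG on either strand.
Gas6: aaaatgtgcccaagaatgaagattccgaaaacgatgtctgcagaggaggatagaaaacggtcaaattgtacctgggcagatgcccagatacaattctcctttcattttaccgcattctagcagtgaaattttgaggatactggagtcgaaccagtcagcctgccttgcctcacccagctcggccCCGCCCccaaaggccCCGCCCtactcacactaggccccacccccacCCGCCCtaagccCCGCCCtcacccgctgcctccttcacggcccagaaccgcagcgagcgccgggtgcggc
Mertk: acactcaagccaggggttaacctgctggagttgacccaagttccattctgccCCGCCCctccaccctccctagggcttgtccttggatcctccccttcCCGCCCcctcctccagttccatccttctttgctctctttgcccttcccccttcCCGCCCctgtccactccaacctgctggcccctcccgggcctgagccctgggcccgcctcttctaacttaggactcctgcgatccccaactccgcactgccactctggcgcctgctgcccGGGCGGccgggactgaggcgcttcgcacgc

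GC boxes, motifs bound by factors of the Sp family, number 4 in each of these windows. In Gas6 they begin at positions -66, -51, -20 and -8, and in Mertk at -198, -152, -99 and 21, where 1 is the annotated start. The windows of Pros1, Axl and Tyro3 held 5, 2 and 6. Of all 32841 windows of that length 35.67% held at least 1 and 10.71% held 3 or more. GC content was 58.3% in Gas6, 66% in Mertk, 66.7% in Pros1, 60.3% in Axl and 73.3% in Tyro3. The median over all windows was 52.7%. Those windows were not matched to the members for GC content, so these shares are no matched background for the counts of GC boxes.

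Motifs of stress-linked factors were searched on both strands in the same windows. None of the 5 held the CRE (cyclic AMP response element) half-site TGACG (in 20.82% of all windows), the full CRE TGACGTCA (1.79%) or the C/EBP-ATF core TGATGNAA (3.968%). The antioxidant response core TGACNNNGC (12.4%), the E-box CACGTG (7.153%), CCAAT (37.42%) and TATAAA (13.62%) were not in these windows either. The heat shock core GAANNTTC, in 7.862% of all windows, matched once in Gas6, at position -233. Some of these motifs overlap, since the full CRE contains the half-site. A match or its absence is a description of these letters only.

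Genes of the wider pathway were counted by list, beside medians over all genes of 0.03 in each treatment comparison and -0.01 between the lines with vehicle. The shares of all genes called, given above, are the background of these counts. Of 6 genes of the vitamin K cycle and ligand maturation, 0 rose and 4 fell with MG132 in knockdown cells, and 0 rose and 2 fell in control cells. Ggcx, the gamma-glutamyl carboxylase that modifies Gla domains, changed by -0.30 ± 0.05 in knockdown cells (adjusted p = 4.18e-05, limma). In control cells its change (-0.07) did not pass. Vkorc1, which regenerates reduced vitamin K, fell in both (-0.30 and -0.17). The list's median response was -0.08 in control and -0.20 in knockdown cells. Furin, a protease that trims secretory precursors, fell by 0.31 in control and by 0.21 in knockdown cells.

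The same list was higher in knockdown cells with vehicle for 3 of 6 genes and lower for 0. Aifm2, a vitamin K and ubiquinone reductase, was 0.56 higher (adjusted p = 6.66e-08), Vkorc1 0.39 and Ggcx 0.34. These genes were not used to choose the 5, but their line differences use the same arrays. The lists were chosen with earlier results of these data known, and genes were named for small p-values in any contrast. Line p-values of named genes, here and in the lists below, are not independent of that. The median of the list was 0.20, against -0.01 for all genes.

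Other genes for Gla proteins had median responses of 0.03 in control and 0.07 in knockdown cells. Of 12 measured of 15, 2 rose and 1 fell in control cells, and 1 rose and 1 fell in knockdown cells with MG132. Between the lines with vehicle, 2 were higher and 2 lower in knockdown cells. Prrg1, a transmembrane Gla protein, was higher by 1.25 ± 0.07 (adjusted p = 1.07e-10) and its relative Prrg4 lower (-0.68, adjusted p = 1.55e-07). Mgp, which inhibits calcification of matrix, was also lower (-0.75, adjusted p = 9.62e-08).

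Of 8 measured of 9 coagulation partners of protein S, 2 rose and 0 fell with MG132 in control cells (median 0.03), and 2 rose and 1 fell in knockdown cells (median 0.11). Among them 3 were higher and 0 lower in knockdown cells with vehicle. Tfpi, an inhibitor of the tissue factor pathway for which protein S is a cofactor, was higher by 3.80 ± 0.06 (adjusted p = 1.36e-17). With MG132 it changed by -0.41 ± 0.06 in knockdown cells (adjusted p = 1.6e-05). F3, tissue factor itself, was higher by 0.66 with vehicle and 1.14 with MG132. Procr, the endothelial protein C receptor, rose with MG132 in both lines (1.14 and 0.99).

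Receptor shedding genes moved in both directions. All 5 passed in control cells, 3 rising and 2 falling (median 0.13), and 4 passed in knockdown cells, 2 rising and 2 falling (median -0.04). Timp3, an inhibitor of ADAM proteases, rose by 1.30 ± 0.04 and 1.38 ± 0.04 (adjusted p = 5.21e-14 and 5.49e-14). Rhbdf2, which helps ADAM17 reach the surface, rose by 0.57 and 0.48. Between the lines with vehicle 2 were higher in knockdown cells, Rhbdf2 by 0.81 (adjusted p = 1.29e-10) and Timp3 by 0.33, and 2 were lower. Of these Adam17, a protease that sheds AXL and MERTK, differed by -0.48 (adjusted p = 8.29e-09) and Rhbdf1 by -0.14.

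Signalling genes act downstream of the receptors. Of 24 measured of 27 adaptors and kinases, 7 rose and 13 fell in control cells, and 4 rose and 10 fell in knockdown cells. Their median responses were -0.13 and -0.07. Tns2, a focal adhesion adaptor, changed by -0.50 and -0.58. Pik3cb, a catalytic subunit of PI3-kinase, changed by -0.37 and -0.34, and the regulatory subunit Pik3r2 by -0.25 and -0.40. Between the lines with vehicle, 7 were higher and 6 lower, and Vav3, an exchange factor for small GTPases, was higher by 0.80.

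Other receptors and bridging proteins for phosphatidylserine numbered 16. In control cells 0 rose and 4 fell with MG132, and in knockdown cells 1 rose and 3 fell (medians 0.03 and 0.05). Thbs1, a matrix glycoprotein that can bridge apoptotic cells, changed by -1.30 ± 0.03 in control and by -0.87 in knockdown cells, a difference of 0.43 (adjusted p = 1.91e-05). Anxa1, a phosphatidylserine-binding annexin, changed by -0.64 and -0.36, a difference of 0.28 (adjusted p = 0.00258). Itgb5 and Mfge8, a receptor subunit and a bridging protein of the integrin route, were higher in knockdown cells with vehicle (0.59 and 0.38).

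Engulfment genes numbered 9, of which 3 rose and 4 fell in control cells (median 0.02), and 3 rose and 5 fell in knockdown cells (median -0.10). Abca1, a lipid transporter, was lower in knockdown cells (-1.33 ± 0.05 with vehicle, adjusted p = 1.77e-12) and changed by -0.65 and -0.58 with MG132. Gulp1, an adaptor of engulfment receptors, was higher by 0.86 with vehicle and fell more in knockdown than in control cells (-0.81 and -0.33, difference adjusted p = 0.00744).

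For phosphatidylserine exposure 10 of 11 genes were measured, of which 1 rose and 4 fell in control cells, and 1 rose and 5 fell in knockdown cells (medians -0.05 and -0.05). Xkr8, a scramblase cleaved in apoptosis, changed by -0.28 and -0.53. Atp8a1, a flippase, was lower in knockdown cells with vehicle (-1.50 ± 0.09, adjusted p = 2.39e-10), and its relative Atp11b higher (0.46). Of the 3 other proposed ligands, Lgals3 alone passed in each treatment comparison (0.17 in control and 0.14 in knockdown cells).

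Growth arrest specific genes share the origin of Gas6's name. Of 6, 1 rose and 3 fell with MG132 in control cells (median -0.25), and 1 rose and 4 fell in knockdown cells (median -0.45). Between the lines 3 were higher and 1 lower in knockdown cells with vehicle. Gas1, a surface protein that binds Hedgehog, was higher by 1.04 ± 0.06 (adjusted p = 1.29e-10), and Pmp22, a membrane protein of myelin, by 0.61. With MG132 Gas1 changed by -0.81 in control and -1.16 in knockdown cells, a difference of -0.34 (adjusted p = 0.00881). Gas7 fell by 0.47 in knockdown cells and did not pass in control cells, and its responses differed (-0.42, adjusted p = 0.000103).

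Against other receptor tyrosine kinases the 3 TAM receptors spread widely. Among 51 such genes in all, Mertk had the largest response to MG132 in control cells and the largest difference of the responses. The next in control cells were Epha7 (-0.94) and Epha4 (-0.87), ephrin receptors, and the next difference was that of Epha2 (0.37, adjusted p = 0.000302). In knockdown cells Mertk stood 7th by size. Axl stood 11th and 14th in the lines, and Tyro3 25th and 29th.

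Of the 48 other kinases 7 rose and 11 fell in control cells, and 8 rose and 15 fell in knockdown cells (medians -0.01 and 0.05). The differences of the responses passed for 8, 5 above 0 and 3 below. Between the lines with vehicle 9 were higher and 10 lower. Fgfr2 was higher by 1.22, and Egfr and Flt1, receptors for EGF and VEGF, were lower (-1.01 and -1.08).

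**Figure D3:**
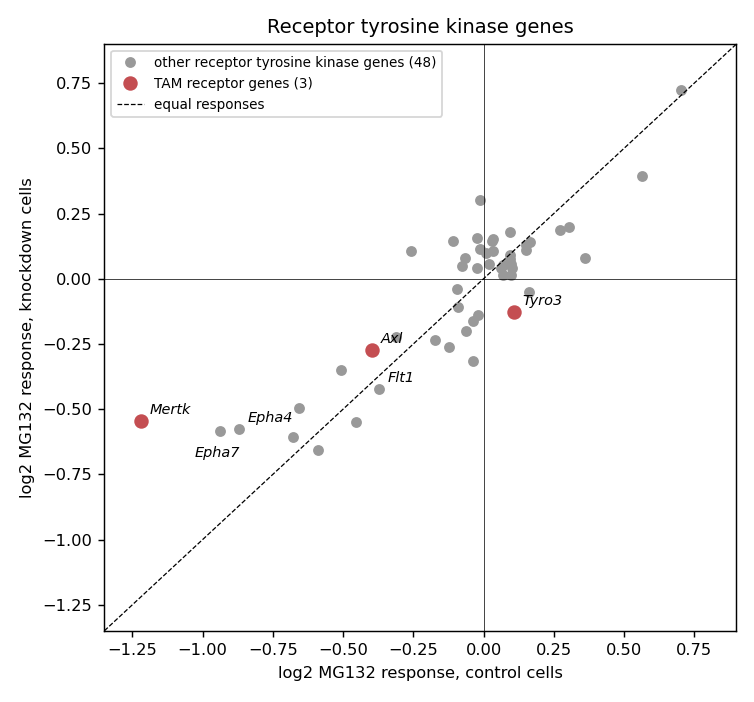
Log2 response to MG132 in control cells (horizontal axis) and in knockdown cells (vertical axis) for 51 receptor tyrosine kinase genes, with the 3 TAM receptors as larger red points and the dashed line at equal responses. Mertk lies furthest to the left at -1.22 and above the dashed line.

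Likeness of pattern was measured as the root mean square difference over the 16 arrays, after each gene's own mean was subtracted. For Gas6 the nearest genes were Tfpi (0.170), Psca (0.182), a lipid-anchored surface protein, Hoxc8 (0.203), a homeobox factor, Eng (0.214), a TGF-beta co-receptor, and Il13ra1 (0.228), a subunit of the IL-13 receptor. Their line differences with vehicle were 3.80, 4.31, 4.33, 3.83 and 4.01 on the log2 scale, close to that of Gas6, which this measure rewards. With MG132 they changed in knockdown cells by -0.41, -0.67, -0.89, -0.46 and -0.28. For Mertk the nearest were Epha7 (0.129), Dusp6 (0.150), a phosphatase acting on ERK, and Epha4 (0.160). Dusp6 changed by -0.99 in control and -0.40 in knockdown cells, and was lower between the lines by -1.10 with vehicle.

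**Figure D4:**
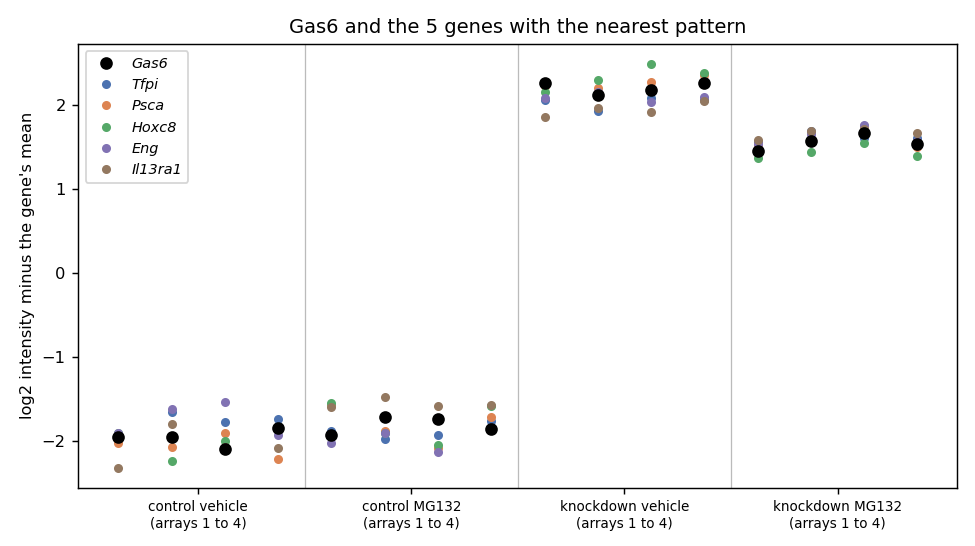
Log2 intensity minus the gene's mean over 16 arrays for Gas6 and its 5 nearest genes, by array and group. All 6 genes lie below 0 in the control arrays and above 0 in the knockdown arrays, as the likeness measure favours.

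The fibroblast label was set beside its markers. Averages over all arrays were 11.61 for Col1a2, 13.62 for Fn1, 12.95 for S100a4, 7.41 for Dcn and 4.75 for Lum, where array medians were 7.71 to 7.82. These are values of separate probe sets without detection calls and give neither an order of the genes nor their presence. Of 10 fibroblast markers, 4 were higher and 3 lower in knockdown cells with vehicle. With MG132 1 rose and 6 fell in control cells, and 3 rose and 5 fell in knockdown cells. The shares of all genes called, given above, are the background of the counts for all marker lists. The mean over the list ranged over 9.90 to 9.92 in control vehicle arrays and 10.00 to 10.07 in knockdown vehicle arrays.

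Macrophages also carry Mertk and Axl. Of 10 macrophage markers, 2 were higher and 0 lower in knockdown cells with vehicle, where 21.5% of all genes were higher and 17.9% lower. Cd14 was higher by 0.79 and Cd68 by 0.12, and the defining Ptprc and Adgre1 averaged 6.26 and 5.78 and did not pass. The list averaged 6.73 to 6.82 in control vehicle arrays and 6.80 to 6.95 in knockdown vehicle arrays. No detection calls were used, so a low value does not show that a gene was off.

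Other marker lists differed between the lines in single genes. With vehicle, 0 endothelial genes of 8 were higher and 1 lower, 0 epithelial genes of 6 were higher and 1 lower (Krt19, -2.44), and 1 of 5 smooth muscle genes was higher and 2 lower (Tagln, -2.06). Of 5 neuron and glia genes 1 was higher and 1 lower, and of 4 adipocyte genes 1 was higher (Fabp4, 0.72) and 1 lower (Pparg, -1.51). With MG132 the same lists had 1 to 3 genes passing in each line. The part of these markers in the line differences of Gas6 and Mertk was not tested.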

How the data were processed

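The authors deposited log2 probe set intensities with 2 decimals for 16 arrays, 1 per plate. The submitters' processing notes name RMA and Partek, without versions or settings. Since RMA equalises array distributions, a general shift of expression would not show, and changes of dim and very bright probe sets can be compressed. The number of arrays limits the precision.

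Of 35556 probe sets, 23410 were listed in the platform's annotation. Of those with 1 symbol (21789), 21698 matched RefSeq GRCm38.p6 by gene ID. Those carrying several symbols (1621) or none were not used. Where a gene had more than 1 probe set (999 genes), the brightest on average represented it, leaving 19938 genes.

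Group means were estimated from all 16 arrays by limma 3.58.1 (R 4.3.3), using lmFit and then eBayes without a filter or block; there were 12 residual and 4.12 prior degrees of freedom. Two-sided p-values were adjusted over all genes by Benjamini-Hochberg, and 0.05 was the threshold. Errors written ± are SEs for differences and SDs for group means. Single members were also compared by an exact two-sided permutation test (70 splits). The fit was tested on simulated data. Motif counts and figures used Python 3.11.15 and matplotlib 3.10.9.

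The members and gene lists were chosen with earlier results of these data known. Named genes are the members, Atf5, up to 4 genes of each list with the smallest p in any contrast, list genes with the highest means, and the nearest genes by pattern (5 for Gas6, 3 for other members with a line difference of at least 1). Outside it, Epha2, Dcn, Lum, Ptprc, Adgre1 and chromosomal neighbours were named after their values were seen. Some listed genes were not analysed here. Alternatives were another normalization, centring, a filter, probe set means, only the groups compared, other variance models, array weights, a replicate block and leaving out arrays.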

Additional observations from a re-analysis of the deposited data

Results flagged for a closer look

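The MG132 responses of 4 of the 5 genes differed between the lines by the interaction term of the limma fit. By the same term 14.6% of all genes passed. This term is the line difference with MG132 minus that with vehicle. It shares values with the comparisons by which the set was chosen for Gas6. The p-value of Gas6 and the count are therefore not independent of that choice. The difference, knockdown minus control, was -0.79 for Gas6 (adjusted p = 1.51e-05), which fell in knockdown cells and did not pass in control cells. For Mertk it was 0.67 (adjusted p = 0.000198), the fall being larger in control cells. For Tyro3 it was -0.24 (adjusted p = 0.0122) and for Pros1 -0.33 (adjusted p = 0.0498), both small beside the first pair. The Pros1 call was kept in 9 of 25 alternative runs, and that of Tyro3 in 23. Gas6 in control cells (7.52 and 7.67) and Mertk in treated knockdown cells (7.40) averaged below the lowest array median, 7.71. Changes of dim probe sets can be compressed, and the part of this in the differences was not tested. Dixon's test was run on the 4 values of each of the 5 genes in each group. It found an outlying value in 0 of these 20 sets, which share the same 16 arrays.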

How the results depend on the processing

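Of 774 recomputed values, 729 were kept. Only the MG132 responses of the members and the differences of these responses were tested, and kept means the same side of the threshold there. Line differences had to move by no more than the spread, and counts of called genes by less than 1.5-fold. Among the tested values 34 missed the threshold where the reported value passed, and 10 passed where it had not. Among line differences 1 moved by more than the spread, and 0 values turned their sign. The 729 therefore include values that could not cross a threshold, and are no measure of the tests alone. The MG132 responses of Axl and Mertk in both lines, that of Gas6 in knockdown cells, and the differences of the responses for Gas6 and Mertk passed under every alternative run, with Gas6 in knockdown cells at -0.70 to -0.61 and Mertk in control cells at -1.28 to -1.16. After a second quantile normalization Tyro3 in knockdown cells gave -0.048, the Pros1 difference -0.24, the Tyro3 difference -0.17 and the Axl line difference with vehicle 0.16. Median centring gave Pros1 0.16 in control cells and a difference of -0.34. Without genes under the 25th percentile, Tyro3 in control cells (0.11) and the Axl difference (0.12) passed, and the Axl difference (0.12) passed with a trended robust prior. Pros1 in control cells missed with only the groups compared (0.21) and with array weights (0.20). Leaving out 4 arrays low on the gradient, added after the data were seen, gave Gas6 0.22 and Pros1 0.20 in control cells, Tyro3 -0.11 in knockdown cells, and differences of -0.32 for Pros1 and -0.23 for Tyro3. With knockdown MG132 replicate 2, almost level on the gradient, left out in place of control vehicle replicate 4, Pros1 gave 0.25 and -0.34 and missed again, but Gas6 in control cells missed as reported (0.16, adjusted p = 0.125), and Tyro3 in knockdown cells (-0.14) and its difference (-0.26) passed. Higher calls numbered 3341 in control and 3276 in knockdown cells, 2150 and 1833 after median centring, and in knockdown cells 5425 with array weights and 5498 without the 4 arrays. The causes were not tested.

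Leaving out single arrays gave 0.10 to 0.18 for Gas6, 0.14 to 0.26 for Pros1 and 0.093 to 0.13 for Tyro3 in control cells, -0.16 to -0.10 for Tyro3 in knockdown cells, and -0.39 to -0.26 for the Pros1 difference. Deviations of same-numbered arrays correlated at 0.03 to 0.40 for number 1, 0.09 to 0.28 for number 3, -0.25 to 0.33 for number 2 and -0.50 to 0.33 for number 4. Since not every pair was positive, and the labels give the numbers no other meaning, they were not treated as pairs. With the replicate number as a block Pros1 missed the threshold in control cells (0.21) and in the difference (-0.33), and no other call on the 5 genes changed.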

Other observations

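Genes beside the members on their chromosomes were compared between the lines with vehicle. In that comparison 39.4% of all genes passed, 21.5% higher and 17.9% lower in knockdown cells. Of the 6 nearest measured genes of Gas6 on chromosome 8, by order alone, 2 were higher in knockdown cells with vehicle, Rasa3 by 0.27 and Cdc16 by 0.19, and 0 were lower. Their differences ranged from -0.03 to 0.27, against 4.15 for Gas6. The 6 nearest genes of Mertk on chromosome 2 ranged from -0.28 to 0.30, with Fbln7 higher and Zc3h8 lower. Among those of Axl, Tgfb1, which encodes a growth factor acting on fibroblasts, was higher by 0.56 (adjusted p = 1.21e-07), more than Axl itself (0.14). Those of Pros1 ranged from -0.23 to -0.03, with 0 higher and 2 lower, and those of Tyro3 from -0.08 to 0.25, with 1 higher and 0 lower.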
